A study of Mus musculus with 8 samples.

Results

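Imprinted genes, which are transcribed mainly from the copy inherited from 1 parent, were examined together with Plag1 and Plagl1, the 2 relatives of the transcription factor Plagl2, in fetal mouse intestine with and without Plagl2. The group was a list of 50 named genes, and a probe set belonged to it when the platform annotation gave it exactly 1 gene symbol and that symbol was on the list. This found 114 probe sets for 45 of the 50 genes among 45101 probe sets on the array. H19, Slc22a3, Rtl1, Dio3 and Zrsr1 had no probe set of their own by this rule. Of the 114 probe sets, 83 probe sets of 37 genes were bright enough to be tested, and 8 genes had only dim probe sets.

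The study compared small intestines of Plagl2 knockout and wild-type mouse fetuses at 18.5 days post coitum, with 4 samples of each genotype and 1 Affymetrix MOE430 2.0 array per sample. Its title names chylomicron metabolism, the handling of absorbed fat, as its subject. No treatment and no other allele was named for either group, and no source used here gives the strain, the litters or the deleted part of Plagl2. Whether the 4 samples of a genotype were separate animals is also not stated, so a p-value measures the spread between these samples. Genotypes were taken from the sample titles, which the design text matches in number; the extraction protocols name wild-type tissue for the knockouts too.

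The targeted gene followed the titles. Plagl2 probe set 1417517_at gave signals of 824, 817, 697 and 796 in the wild-type samples and 3, 6, 5 and 11 in the knockouts. Array medians were 36 to 42. Wild-type replicate 3 correlated less with its own genotype (r = 0.960 to 0.964 over log2 signals of probe sets) than the other wild-types did with each other at best (0.974), and reached 0.948 with a knockout. Knockout replicates 3 and 4 had the lowest correlation within their genotype (0.950). Xist, which coats the inactive X chromosome, gave 1828 and 1410 in knockout replicates 2 and 3 and at most 47 in the other arrays. The samples are bulk tissue, so fewer cells of a type and less RNA per cell cannot be told apart. Defining markers of intestinal epithelium were bright in every array, with a mean log2(signal + 16) over 7 markers of 11.20 to 11.40 in wild-types and 11.11 to 11.51 in knockouts.

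Imprinting is set by DNA methylation that differs between egg and sperm, and an imprinting control region usually governs a cluster of neighbouring genes. Many of these genes act on fetal growth: paternally expressed ones such as Igf2 tend to promote it, and maternally expressed ones such as Igf2r, Cdkn1c, Phlda2 and Grb10 tend to restrain it. PLAG family proteins are zinc finger transcription factors that bind GC-rich DNA. Igf2 is a known target of PLAG1 and PLAGL2, and Plagl1 (also called Zac1) is itself imprinted. The parental alleles used here are textbook assignments, and the arrays cannot tell the alleles apart.

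In the knockout intestine the cell cycle inhibitor Cdkn1c fell by 3.20 on the log2 scale, and the growth factor Igf2, its scavenger receptor Igf2r and the microRNA host Mirg each fell by more than 1. Gatm and Rian were also lower, while Phlda2, Slc22a18 and Blcap were higher. These are values of each gene's brightest probe set, and a second Mirg probe set showed no such difference (0.04). The calls of Rian and Blcap were each lost in 14 of 21 alternative fits. That of Gatm was lost in 6, and 1 wild-type array of Gatm lay among the knockouts. A probe set was called when its Benjamini-Hochberg adjusted p, from limma over all 27022 probe sets tested, was under 0.05. Represented by their brightest tested probe set, 3 of the 37 tested members were called as higher in the knockout (6.6% of all genes were), 6 as lower (8.5% of all genes) and 28 were not called. The called share of members was 24.3%, against 15.1% of all 12838 genes. Over probe sets the share was nearer the background, at 13 of 83 (15.7%) against 12%, with 4 higher (5.28% of all probe sets were) and 9 lower (6.7%). The 2 genotypes did not overlap for 8 of the 37 members (21.6%), against 19.9% of all genes. The median log2 fold change of the members was 0.10, with 24 above 0 and 13 below, and that of all genes was 0.03. Leaving out wild-type replicate 3 raised the count of higher members to 7, and using only the 6 arrays that lacked Xist signal reduced it to 1. That 1 was Ndn (log2 fold change 0.99, limma adjusted p = 0.0435), which was not among the 3. In those 6 arrays Blcap (0.28) and Slc22a18 (0.127) were not called, and Phlda2 was not tested.

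**Figure D1:**
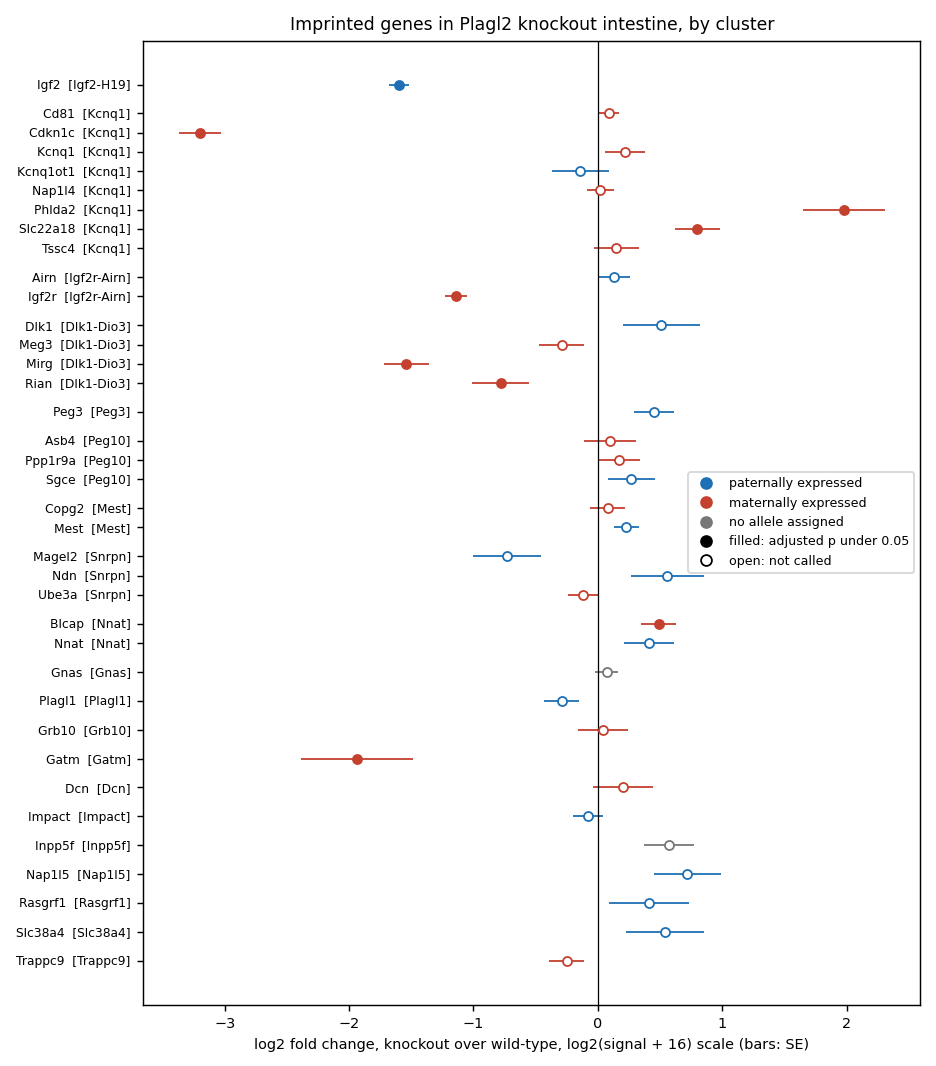
Log2 fold change of each tested imprinted gene or relative (knockout over wild-type, log2(signal + 16) scale) with its standard error, grouped by imprinted cluster given in brackets; blue marks paternally expressed genes, red maternally expressed genes and grey genes with no allele assigned, and filled points have an adjusted p under 0.05. By brightest probe set, Igf2 is the lone called paternally expressed gene. The called maternally expressed genes lie on both sides of 0, from -3.20 for Cdkn1c to 1.98 for Phlda2.

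By parental allele, calls were mostly on maternally expressed genes and ran in both directions. Of 20 tested maternally expressed members, 3 were higher and 5 lower (40% called, against 15.1% of all genes), with a median log2 fold change of 0.06. Of 15 tested paternally expressed members, 0 were higher and 1 was lower (6.67% called), with a median of 0.27. The difference between these shares was not tested, and both counts moved with single arrays. Maternally expressed calls numbered 5 without wild-type replicate 1, 2 or 4, and 3 where both Xist arrays were left out. Paternally expressed calls numbered 4 without wild-type replicate 3 or without knockout replicate 3, and 2 without knockout replicate 4. Among maternally expressed genes imprinted in most tissues, 2 were higher and 4 lower of 9 tested (66.7% called). This grouping was made with earlier results known, so the share is a description only. Of these calls, Phlda2 passed the filter on dim probe sets through its knockout signals. Those of Rian and of Slc22a18 on 1417809_at were lost in 14 and 4 of 21 alternative fits. Among those whose imprinting is reported mainly for placenta, brain or other restricted tissues, 1 was higher and 1 lower of 11. That share (18.2%) was near the 15.1% of all genes. Plagl1 was uncalled in the paternal count, although its dimmer probe set 1438588_at was called as lower (limma adjusted p = 0.00833). Without an allele assigned, 0 of 2 tested genes (Gnas and Inpp5f) were called.

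DNA sequence near the start of these genes was set beside the calls because PLAG proteins recognise a GC core followed, after a short spacer, by a run of G. The PLAG1 consensus was searched on both strands of RefSeq promoters of assembly GRCm38.p6, from 250 bases before to 50 bases after each listed start. It was found in 6303 of 32851 promoters of all genes (19.2%), in 16 of 57 promoters of the 39 members listed there (28.1%) and in 5 of 12 promoters of 9 members with a called probe set (41.7%). Plagl1 is among these 9, while Cdkn1c, the last of the 10 members with a called probe set, had no promoter that could be matched and is not in these shares. Per gene, the shares were 21.2% of all genes, 41.0% of members and 55.6% of the 9. The promoters also differed in base composition, with a median of 7 CpG in all promoters, 13 in members and 15.5 in the 9. The contribution of composition to the shares was not tested. The letters GGGGCCCC, searched on both strands as a second GC-rich string, were found in 354 of all promoters (1.08%), in 4 of the 57 and in 0 of the 12. Igf2 had 4 listed promoters, of which 1 held the PLAG1 consensus. These are descriptions of letters and not of bound sites. The windows below show the matches in the 5 genes, each written 5′ to 3′ along the gene's strand with the match in capitals. Distances are counted from the listed start whose promoter held the match. On the gene's strand the matches start 101 bases before that start for Igf2, 120 for Phlda2, 239 for Rian and 37 for Igf2r. Plagl1 has 2 matches on the opposite strand, 204 and 140 bases before its start. For Igf2 and Phlda2 this start is an internal one. Their windows lie inside the annotated spans of these genes (chr7:142650768-142666816 and chr7:143501545-143503145).
Igf2 chr7:142657557-142657621, minus strand: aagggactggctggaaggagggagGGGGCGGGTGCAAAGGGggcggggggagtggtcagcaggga
Phlda2 chr7:143502605-143502668, minus strand: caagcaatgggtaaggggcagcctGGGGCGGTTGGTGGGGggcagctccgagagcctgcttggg
Plagl1 chr10:13090604-13090666, plus strand: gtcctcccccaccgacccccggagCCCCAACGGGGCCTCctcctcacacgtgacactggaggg
Plagl1 chr10:13090668-13090731, plus strand: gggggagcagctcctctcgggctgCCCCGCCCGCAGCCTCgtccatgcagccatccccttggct
Rian chr12:109603695-109603746, plus strand: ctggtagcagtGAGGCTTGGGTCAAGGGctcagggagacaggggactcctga
Igf2r chr17:12769705-12769767, minus strand: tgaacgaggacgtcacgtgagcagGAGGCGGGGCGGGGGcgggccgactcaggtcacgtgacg

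Igf2, an insulin-like growth factor made by mesenchymal cells of the fetus, was lower in every knockout. Its brighter probe set 1448152_at gave signals of 5826, 5907, 6211 and 5355 in the wild-types and 1917, 2053, 1687 and 1991 in the knockouts. The genotypes were far apart, at 5825 ± 354 against 1912 ± 160 (SD, n = 4), a 3.05-fold difference. Its log2 fold change was -1.60 ± 0.08 (SE; limma adjusted p = 4.01e-07). A second Igf2 probe set, 1415931_at, gave 220, 243, 491 and 239 in wild-types and 60, 46, 36 and 54 in knockouts. Here too no knockout reached a wild-type, wild-type replicate 3 stood above the others, and the log2 fold change was -2.21 ± 0.23 (adjusted p = 6.46e-05).

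H19, the maternally expressed non-coding RNA that shares its enhancers with Igf2, was represented only by probe set 1448194_a_at, which the annotation lists for both Mir675 and H19 and which the rule therefore left out. Mir675 lies within H19. This probe set gave 8925, 8666, 7919 and 7825 in the wild-types and 2796, 2715, 1923 and 4118 in the knockouts. The genotypes did not overlap, with 8334 ± 545 against 2888 ± 910 (SD, n = 4), and the knockouts were 2.89-fold lower. Its log2 fold change was -1.57 ± 0.17 (adjusted p = 0.000102). The probe sets of these oppositely imprinted neighbours therefore both gave lower signal in the knockout.

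Beside Igf2, an antisense transcript overlapping it was chosen after its values were seen. Igf2os, probe set 1427394_at, gave 621, 707, 910 and 694 in wild-types and 53, 80, 86 and 68 in knockouts. It was 10.2-fold lower in the knockouts, with no overlap (log2 fold change -3.10 ± 0.15, adjusted p = 2.95e-07). Sense and antisense RNA are told apart here only by the orientation of the probes.

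Cdkn1c encodes p57Kip2, a cyclin-dependent kinase inhibitor expressed from the maternal copy. Its probe set 1417649_at gave 5975, 6655, 5150 and 6093 in the wild-types and 659, 635, 430 and 887 in the knockouts. The lowest wild-type was far above the highest knockout. The means were 5968 ± 621 and 653 ± 187 (SD, n = 4), a 9.14-fold difference, and the log2 fold change was -3.20 ± 0.17 (adjusted p = 5.52e-07). Of all genes tested, 2.7% were called with a log2 fold change of -1 or lower.

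Cdkn1c lies in the Kcnq1 cluster, whose genes are silenced on the paternal copy through the non-coding RNA Kcnq1ot1. Its neighbours within the cluster moved the other way or were not called. Phlda2, a small protein that restrains placental growth, gave 5, 5, 29 and 6 in the wild-types and 73, 152, 100 and 45 in the knockouts on probe set 1417837_at. All 4 knockouts were above all 4 wild-types, which were dim except for wild-type replicate 3. The means were 11.2 ± 11.8 and 92.5 ± 45.6 (SD, n = 4) and the log2 fold change was 1.98 ± 0.33 (adjusted p = 0.00208), a size that ranged from 1.02 to 3.19 over the alternatives, other offsets than 16 among them. Phlda2 passed the filter on dim probe sets through its knockout signals, so its place among the higher members rests in part on that. It was also called with no filter (1.98, adjusted p = 0.00462). In 2 alternatives it was too dim to be tested, namely with a filter that left out the dimmest 60% and in the 6 arrays without Xist signal.

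Slc22a18, a member of the organic cation transporter family next to Cdkn1c, was higher on both of its probe sets. Probe set 1417809_at gave 129, 84, 133 and 135 in wild-types and 202, 246, 271 and 166 in knockouts, with no overlap. The means were 120 ± 24.3 and 221 ± 46.6 (SD, n = 4), and the log2 fold change was 0.80 ± 0.18 (adjusted p = 0.012). Probe set 1427531_a_at gave 113, 126, 117 and 84 against 191, 206, 196 and 133, again without overlap (0.64 ± 0.16, adjusted p = 0.0233), a call lost without knockout replicate 1, 2 or 3 or wild-type replicate 1 or 4 (0.0507 to 0.0811). The highest signals of Phlda2 and of Slc22a18 on 1417809_at were in knockout replicates 2 and 3, the arrays with Xist signal. In the 6 arrays without it the log2 fold change on 1417809_at was 0.57 and not called (adjusted p = 0.127). Entering the 3′ to 5′ ratio ended the calls of 1417809_at (0.93, adjusted p = 0.0943) and 1427531_a_at (0.48, 0.339), and so did the unmoderated model (0.0739 and 0.0834). This ratio of control signals was -0.055 to 0.007 on the log2 scale in wild-types and 0.017 to 0.098 in knockouts. The genotypes did not overlap in it, so this fit cannot fully separate the ratio from genotype. With Xist as a covariate the log2 fold change of Phlda2 was 1.49 (0.0285).

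The other 5 tested genes of the Kcnq1 cluster were not called. These were the potassium channel gene Kcnq1 (0.22), the non-coding Kcnq1ot1 (-0.14), the tetraspanin gene Cd81 (0.09), Tssc4 (0.15) and the histone chaperone gene Nap1l4 (0.02), all as log2 fold changes. Kcnq1ot1 was thus measured without a call on any of its 4 tested probe sets.

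Across the whole stretch of distal chromosome 7 from Ctsd to Osbpl5, calls other than Ctsd lay in runs of tested neighbours. These runs were Mrpl23, Igf2 and Igf2os, and Cdkn1c, Slc22a18 and Phlda2. Of 22 genes tested there by a probe set of 1 symbol, 9 were members. Of the 22, 2 were higher and 5 lower, where 6.6% and 8.5% of all genes were. The probe set listed for both Mir675 and H19 is not in these counts. The 3 called genes that were not members were Ctsd (-0.79), Mrpl23 (-0.39) and Igf2os, chosen after their values were seen. Between Igf2os and Cdkn1c, 0 of 9 tested genes were called, and Ascl2, the nearest to a call, had a log2 fold change of -0.92 and an adjusted p of 0.0562.

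**Figure D2:**
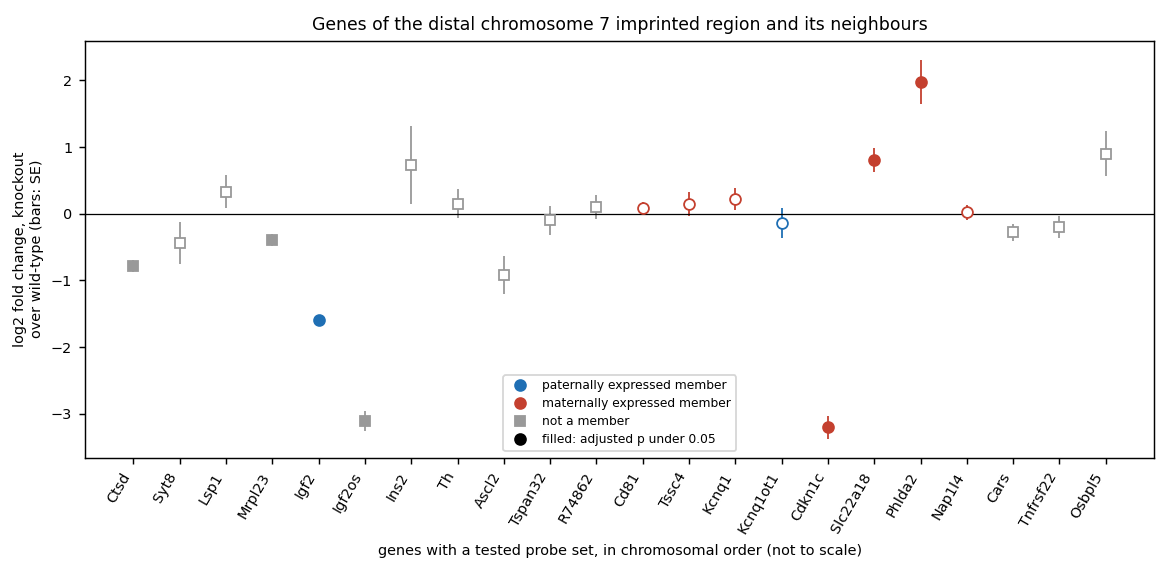
Log2 fold change (knockout over wild-type, with standard error) of the genes with a tested probe set in the distal chromosome 7 region, in chromosomal order and not to scale; circles are members, blue paternally and red maternally expressed, grey squares are other genes, and filled symbols have an adjusted p under 0.05. Igf2, Igf2os and Cdkn1c stand lowest, at -1.60, -3.10 and -3.20, while Slc22a18 and Phlda2 beside Cdkn1c stand above 0.

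Igf2r, the mannose 6-phosphate receptor that takes up IGF2 and delivers it for breakdown, fell alongside its ligand. Probe set 1424112_at gave 1453, 1473, 1209 and 1374 in the wild-types and 561, 624, 652 and 627 in the knockouts. Each genotype was tight, at 1377 ± 120 and 616 ± 38.8 (SD, n = 4), a 2.24-fold difference with no overlap. The log2 fold change was -1.14 ± 0.09 (adjusted p = 1.15e-05). Probe set 1424111_at gave 917, 909, 676 and 803 against 424, 414, 414 and 371, also without overlap (-0.99 ± 0.11, adjusted p = 0.000131). Airn, the paternally expressed antisense RNA that silences Igf2r on that copy, had a log2 fold change of 0.13 and was not called on any of 4 tested probe sets.

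The Dlk1-Dio3 cluster of chromosome 12 holds the paternally expressed Dlk1 and the maternally expressed non-coding RNAs Meg3, Rian and Mirg. Rian hosts small nucleolar RNAs and microRNAs, and Mirg hosts microRNAs. Mirg probe set 1457030_at gave 202, 233, 136 and 159 in the wild-types and 58, 47, 40 and 62 in the knockouts. The genotypes did not overlap, with 182 ± 43.4 against 51.8 ± 10.1 (SD, n = 4) and a log2 fold change of -1.54 ± 0.18 (adjusted p = 0.000152). A dimmer Mirg probe set, 1440097_at, gave 62, 51, 73 and 52 against 64, 48, 45 and 96 and showed no such difference (0.04, adjusted p = 0.935), so the 2 probe sets disagreed.

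Rian was called on its brightest probe set only. Probe set 1452899_at gave 142, 167, 170 and 143 in wild-types and 52, 114, 62 and 128 in knockouts, which did not overlap. The log2 fold change was -0.78 ± 0.23 (adjusted p = 0.0447), a call that was lost in 14 of 21 alternatives, among them each single array left out except knockout replicates 2 and 4 (0.0738 to 0.115). The other 3 Rian probe sets had log2 fold changes of -0.73, -0.44 and -0.33 and were not called. Meg3 had 11 tested probe sets with log2 fold changes from -0.73 to 0.18 and none was called. Its brightest, 1439380_x_at, gave 1609, 1441, 1817 and 1148 against 1166, 1270, 895 and 1625 (-0.29 ± 0.18, adjusted p = 0.337). Dlk1, a NOTCH-like transmembrane protein of fetal mesenchyme, gave 374, 333, 626 and 320 against 628, 561, 297 and 1013, and its overlapping genotypes differed by 0.51 (adjusted p = 0.337).

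MicroRNAs that lie within transcripts with a probe set called as lower are listed by position only. The host probe sets do not measure them, and the array did not measure the mature forms. By their RefSeq positions, Igf2 holds 2 mature microRNAs, H19 holds 2, Mirg 19 with 18 different seeds, and Rian 6. Within Mirg, miR-453 and miR-496a-5p share a seed. Capitals mark bases 2 to 8, the seed that pairs with target RNA.
mmu-miR-483-3p (in Igf2): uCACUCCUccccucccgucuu
mmu-miR-483-5p (in Igf2): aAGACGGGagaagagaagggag
mmu-miR-675-3p (in H19): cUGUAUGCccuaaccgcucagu
mmu-miR-675-5p (in H19): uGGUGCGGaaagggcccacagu
mmu-miR-453 (in Mirg): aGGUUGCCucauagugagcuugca
mmu-miR-496a-5p (in Mirg): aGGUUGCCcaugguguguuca

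Gatm makes guanidinoacetate, the precursor of creatine, and its imprinting is known from placenta and yolk sac. Its probe set 1423569_at gave 475, 477, 76 and 428 in the wild-types and 83, 56, 47 and 86 in the knockouts. Wild-type replicate 3 lay among the knockouts, while the other wild-types were far above them. The log2 fold change was -1.94 ± 0.45 (adjusted p = 0.0156). Without wild-type replicate 3 it was -2.53 (5.98e-06), and without wild-type replicate 1, 2 or 4 it was -1.73, -1.72 and -1.77 and not called (0.0581, 0.0571 and 0.0524). In the arrays without Xist signal it was -1.65 and not called (0.126).

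Blcap, whose imprinting is known from brain, encloses the paternally expressed Nnat in an intron. Its probe set 1420631_a_at gave 146, 179, 168 and 168 in wild-types and 212, 293, 265 and 196 in knockouts, with the 2 highest signals in the arrays with Xist signal. No knockout overlapped the wild-types, and the log2 fold change was 0.49 ± 0.14 (adjusted p = 0.0411), a call lost in 14 of 21 alternatives, among them each single array left out except wild-type replicate 3 and knockout replicate 4 (0.0548 to 0.131). With Xist as a covariate it was 0.27 (adjusted p = 0.299).

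**Figure D3:**
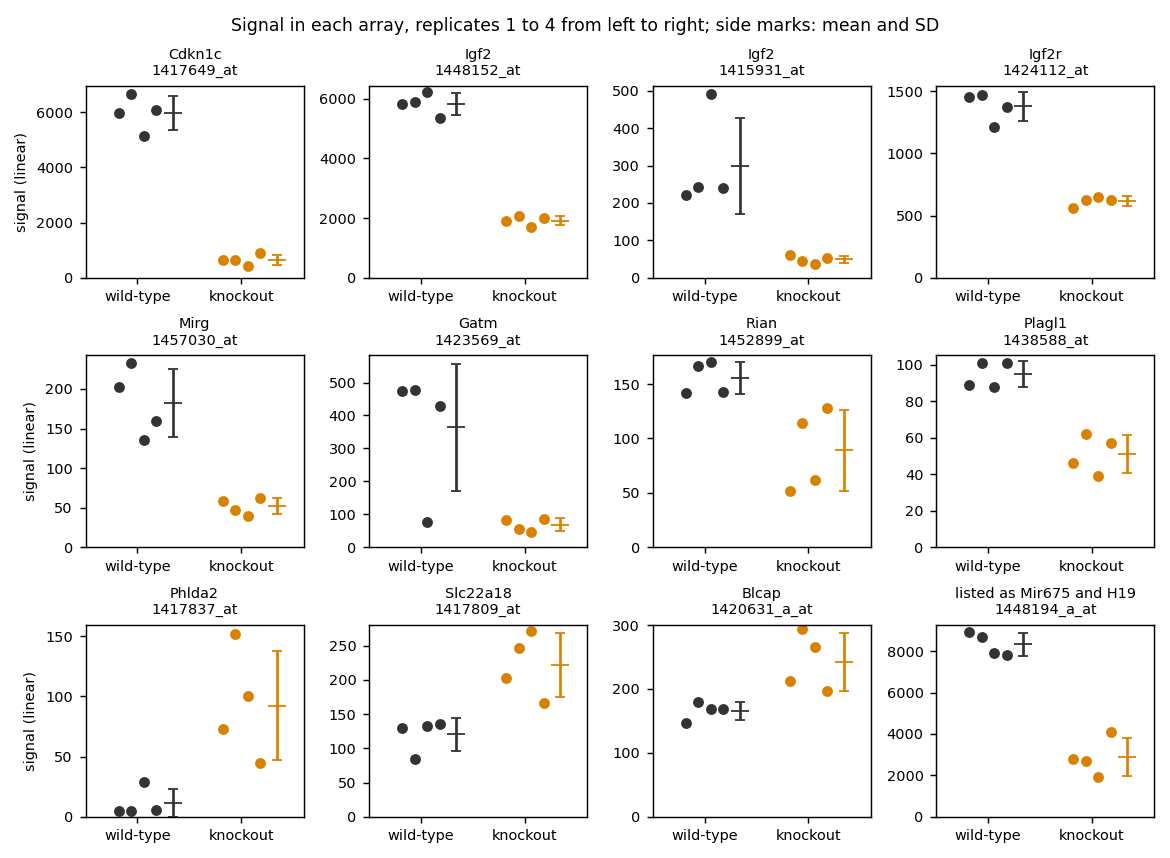
Linear signal in each of the 4 wild-type (dark) and 4 knockout (orange) arrays for a called probe set of each called member and of Plagl1, for both Igf2 probe sets and for the probe set listed for both Mir675 and H19; the side marks are the mean and SD. Gatm is the exception to the separation of genotypes, since wild-type replicate 3 (76) lies within the range of the knockouts (47 to 86).

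Of the relatives of Plagl2, Plagl1, a paternally expressed inhibitor of growth, was lower on 1 of 3 tested probe sets. Probe set 1438588_at gave 89, 101, 88 and 101 in the wild-types and 46, 62, 39 and 57 in the knockouts, with no overlap. The means were 94.8 ± 7.23 and 51 ± 10.4 (SD, n = 4) and the log2 fold change was -0.74 ± 0.15 (adjusted p = 0.00833). The size hardly moved when Xist (-0.74, adjusted p = 0.0509) or each array's ratio of 3′ to 5′ control signal (-0.73, 0.134) entered the fit, though the call was lost. The far brighter 1426208_x_at, which represented the gene in the counts, gave 4614, 4449, 5081 and 4055 against 3990, 3500, 2784 and 4892, where knockout replicate 4 overlapped the wild-types (-0.29 ± 0.14, adjusted p = 0.239; -0.42 and 0.0472 without that array). Probe set 1450533_a_at gave 140, 64, 204 and 136 against 75, 90, 23 and 176 and was not called either (-0.63, adjusted p = 0.384). Plag1, an oncogene of salivary gland tumours, was too dim to be tested. Probe set 1421745_at gave 10, 14, 8 and 22 in wild-types and 20, 25, 15 and 3 in knockouts, and probe set 1443943_at gave 2, 5, 17 and 15 against 10, 4, 2 and 10. The genotypes overlapped on both (exact two-sided permutation p = 0.829 and 0.514, where the smallest possible with 4 against 4 is 0.0286).

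Beyond the called genes, the 12 members with the smallest p were uncalled, with 8 above 0 and 4 below. Several of them are paternally expressed genes that leaned higher in the knockouts. Peg3, a zinc finger protein of mesodermal cells, gave 424, 438, 612 and 370 in wild-types and 701, 594, 514 and 708 in knockouts on 1433924_at (0.45 ± 0.16, adjusted p = 0.0886). Wild-type replicate 3 made the genotypes overlap, and the gene was called without that array (0.0104) or without knockout replicate 3 (0.0477). Mest, a hydrolase-like protein of mesoderm, gave 1573, 1355, 1864 and 1483 against 1806, 1923, 1698 and 1889 (0.23 ± 0.10, adjusted p = 0.184). Wild-type replicate 3 was again the highest of its genotype and overlapped the knockouts.

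Ndn, which encodes the growth suppressor necdin, gave 534, 446, 676 and 310 in wild-types and 854, 691, 388 and 1070 in knockouts on its brightest probe set 1435382_at (0.56 ± 0.29, adjusted p = 0.248). The genotypes overlapped through knockout replicate 3, without which the log2 fold change was 0.84 (0.0369). In the 6 arrays without Xist signal, which also leave out knockout replicate 3, the log2 fold change of Ndn was 0.99 and called (0.0435). Without knockout replicate 4 that of Ndn was 0.36 and not called (0.48). Its neighbour Magel2, a related MAGE gene, leaned the other way with 48, 30, 31 and 36 against 34, 17, 6 and 10 (-0.73 ± 0.27, adjusted p = 0.109). Both genes belong to the cluster of Snrpn, whose own single-symbol probe set was dim. Of 6 probe sets listed for both Snurf and Snrpn, 4 were tested and 0 were called, with log2 fold changes from -0.16 to 0.11.

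Nnat, a proteolipid of developing nerve and endocrine cells, gave 240, 207, 409 and 232 against 381, 311, 288 and 460 with an uncalled difference of 0.41 (adjusted p = 0.232). That difference was 0.61 and called without wild-type replicate 3 (0.0219), and 0.29 and not called without knockout replicate 4 (0.441). Nap1l5 gave 55, 61, 64 and 23 against 92, 98, 53 and 132 (0.72 ± 0.27, adjusted p = 0.115). Slc38a4, an amino acid transporter, gave 71, 52, 115 and 50 against 109, 124, 50 and 184 (0.54, adjusted p = 0.309). In all 3 genes knockout replicate 3 was the lowest knockout and replicate 4 the highest. Inpp5f, an inositol phosphatase whose imprinting depends on the transcript, gave 94, 96, 128 and 65 against 161, 184, 102 and 151 (0.57 ± 0.20, adjusted p = 0.0948). Trappc9 gave 145, 146, 118 and 162 against 103, 120, 107 and 140 (-0.25 ± 0.14, adjusted p = 0.292). Both of these overlapped between the genotypes. Leaving out wild-type replicate 3 also brought Mest (0.31, adjusted p = 0.0299) and Inpp5f (0.70, 0.0356) under the threshold, and leaving out knockout replicate 3 did so for Inpp5f (0.72, 0.0294) and Nap1l5 (0.93, 0.0373).

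The remaining 16 tested members had log2 fold changes between -0.14 and 0.41 and adjusted p of 0.411 or more. They were Airn, Asb4, Cd81, Copg2, Dcn, Gnas, Grb10, Impact, Kcnq1, Kcnq1ot1, Nap1l4, Ppp1r9a, Rasgrf1, Sgce, Tssc4 and Ube3a. Among them Grb10, an adaptor that restrains insulin receptor signalling, differed by 0.04, and Gnas, which encodes the stimulatory G protein subunit, by 0.07. In the Peg10 cluster, Sgce (0.27), Ppp1r9a (0.17) and Asb4 (0.10) were not called, and in the Mest cluster Copg2 (0.08) was not. The 8 members with only dim probe sets were Calcr, Mkrn3, Peg10, Plag1, Slc22a2, Snrpn, Usp29 and Zim1, with a highest signal of 33, in Peg10. On none of their probe sets was the exact two-sided permutation p under 0.0857, so no difference was detectable for them at this signal.

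Within each genotype, many members were high or low in the same arrays. Wild-type replicate 3 was the highest wild-type for 23 of the 37 tested members (62.2%), against 34.3% of all genes. Knockout replicate 4 was the highest knockout for 21 (56.8%, against 33.1%) and knockout replicate 3 the lowest for 23 (62.2%, against 37.3%). All 3 held at once for 13 members (35.1%), against 1319 of all genes (10.3%). These were Cd81, Dlk1, Gnas, Grb10, Meg3, Nap1l5, Ndn, Nnat, Peg3, Plagl1, Ppp1r9a, Sgce and Slc38a4, none of which was called by its brightest probe set.

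Markers of fibroblasts and smooth muscle had the same order of arrays, and so did the mean of enteric neuron markers. Of the 12 fibroblast and smooth muscle markers, wild-type replicate 3 was highest for 10, knockout replicate 4 for 11, and knockout replicate 3 lowest for 12. The mean log2(signal + 16) of 6 fibroblast markers was 10.21, 10.09, 10.45 and 9.94 in the wild-types and 10.67, 10.56, 10.12 and 10.87 in the knockouts. For 6 smooth muscle markers it was 10.02, 9.86, 10.37 and 9.60 against 10.44, 10.43, 9.85 and 10.76. The genotypes overlapped in both lists, and 0 of 6 markers was called in each, but the log2 fold changes of all 12 lay above 0, from 0.07 to 0.62 with a median of 0.48. Those of the paternally expressed Peg3 (0.45), Ndn (0.56), Dlk1 (0.51) and Slc38a4 (0.54) were within that range. Among the other members with this order of arrays, Plagl1 (-0.29), Meg3 (-0.29), Grb10 (0.04) and Nap1l5 (0.72) lay outside it. The part of these cell types in the values of the members was not tested.

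**Figure D4:**
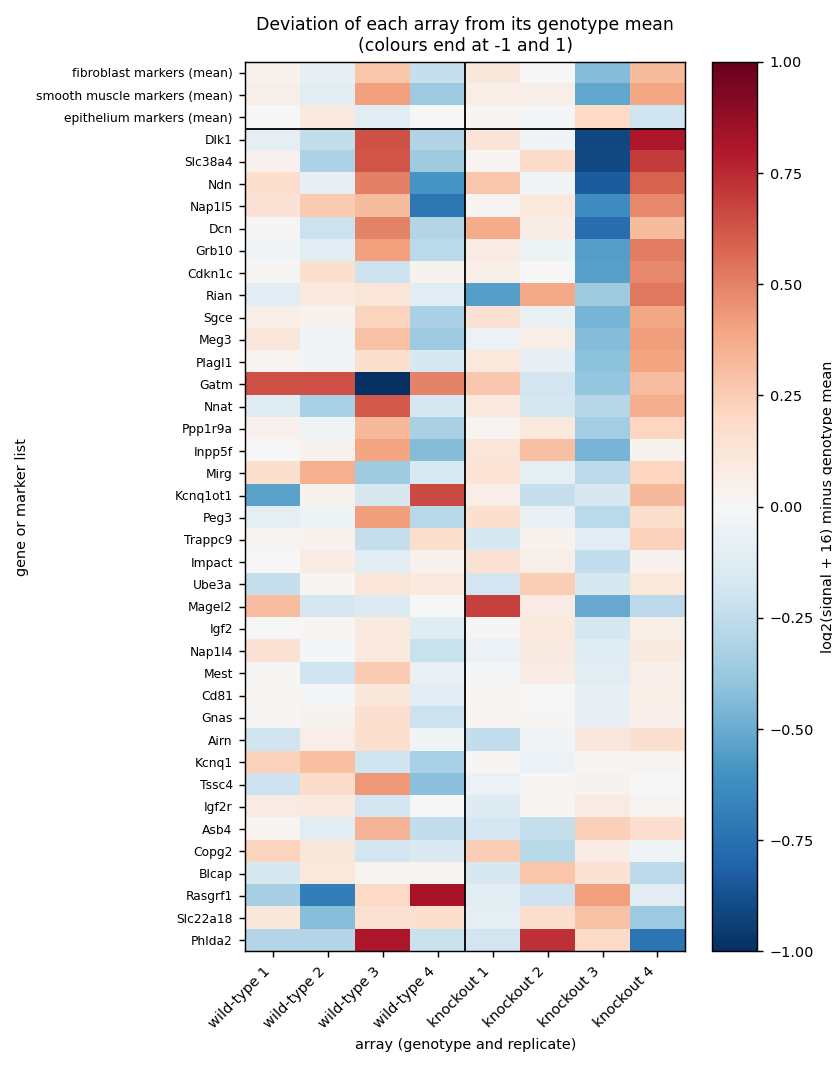
Difference between each array's log2(signal + 16) and the mean of its genotype, for the means of 3 marker lists (top) and for each tested member by its brightest probe set, with colours from blue (below the mean) to red (above it) and ending at -1 and 1. Dlk1, Slc38a4, Ndn and Grb10 are red in wild-type replicate 3 and knockout replicate 4 and blue in knockout replicate 3, like the fibroblast and smooth muscle markers, while Igf2 and Igf2r are pale throughout.

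Markers of other cell types were read in the same way. The mean over 4 leukocyte markers was 7.97 to 8.36 in wild-types and 7.02 to 7.55 in knockouts, without overlap. Of the 4, Csf1r, the receptor of a macrophage growth factor, was called as lower (3752 ± 635 against 707 ± 103, SD, n = 4; log2 fold change -2.38). The other 3 markers, Cd52, Cd68 and Ptprc, each overlapped and were not called (-0.32, -0.34 and -0.44). Of 2 tested mesothelial markers Upk3b was lower (-1.17) and Msln was not called (-0.01). Of 3 glial markers S100b was lower (-0.89), while Fabp7 (0.30) and Sox10 (0.39) lay above 0 and were not called. Among 7 epithelial markers Krt8 and Krt19 were higher and Krt18 was lower. Enteric neuron markers (6.47 to 7.09 against 6.54 to 7.22) and endothelial markers (7.04 to 7.30 against 7 to 7.34) overlapped, with 0 of 5 called in each. The enteric neuron mean was highest in wild-type replicate 3 (7.09) and knockout replicate 4 (7.22), and knockout replicate 3 (6.54) was the lowest knockout. Liver, exocrine and endocrine pancreas and erythroid markers also overlapped with none called, and no placental marker was bright enough to be tested. The liver mean was likewise highest in wild-type replicate 3 (7.09) and knockout replicate 4 (9.93), but its lowest knockout was replicate 2 (5.33). The liver marker albumin reached 4646 in knockout replicate 4 against 4 in knockout replicate 2. Knockout replicate 4 also had the highest knockout signals of Cdkn1c and of the probe set listed for H19, and both remained called without it.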

How the data were processed

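Biotinylated cRNA from total RNA of 8 small intestine samples was hybridized to 1 array each, per the labels. The values the authors deposited are linear signal intensities, scaled so that each array's mean, trimmed by 2% at each end, is about 150.05; no source used here names the signal algorithm, and the values carry no detection calls. Of 45101 probe sets, 34958 are annotated with 1 symbol, 932 with several and 9211 with none, and 64 are controls; all 114 member probe sets were found by Entrez ID in the RefSeq table of GRCm38.p6.

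Signals were taken as log2(signal + 16), so fold changes of dim probe sets are understated. The dimmest 40% of probe sets (mean signal under about 23) and the controls were left out, and 27022 were fitted on genotype with limma 3.58.1 in R 4.3.3 (lmFit, eBayes with an intensity trend), two-sided, with Benjamini-Hochberg adjustment over all of them; the script was tested on simulated data. A gene was represented by its brightest tested probe set. Beyond this choice and the words brighter and dimmer for probe sets of the same gene, levels of different probe sets were not compared. The number of arrays limits the precision.

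The members, clusters, alleles and other lists were chosen with earlier results of these data known, so member counts are descriptions read against all genes. Values in every array are given for Plagl2 and its relatives, for members with a called probe set, for the 12 next by p, and for Igf2, H19 and Igf2r; other genes with values in every array are said to be chosen after their values were seen. Replicate numbers did not pair the samples: deviations of same-numbered arrays correlated at -0.01, -0.05, -0.27 and -0.12 over probe sets. Alternatives were the filter (none, 60%), offsets of 1 and 64, quantile normalization, a replicate block, array weights, no trend, an unmoderated linear model, a covariate (Xist, or the ratio of 3′ to 5′ control signal), a gene's probe sets averaged, the 6 arrays without Xist signal, each array left out, and wild-type replicate 3 and knockout replicate 4 left out together.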

Additional observations from a re-analysis of the deposited data

Results flagged for a closer look

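Among 96 groups of 4 arrays, for the 48 probe sets followed through the alternatives, 6 held an array whose gap to the others was above Dixon's critical value of 0.829, where chance gives about 1 in 20. Wild-type replicate 3 accounted for 3 of them. Its Gatm signal on 1423569_at was 76, while the others of its genotype lay at 428 to 477, its Igf2 signal on 1415931_at was 491 against 220 to 243, and its Phlda2 signal was 29 against 5 to 6. Nap1l5 was 23 in wild-type replicate 4 against 55 to 64. Slc22a18 on 1417809_at was 84 in wild-type replicate 2 against 129 to 135. Kcnq1 on 1449464_at was 101 in knockout replicate 2 against 107 to 108, a small gap in a narrow group.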

How the results depend on the processing

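Cdkn1c, both Igf2 probe sets, both Igf2r probe sets, Mirg on 1457030_at, Phlda2, Igf2os and the probe set listed for Mir675 and H19 kept their direction and call in every alternative in which they could be tested. Counts of calls moved more. Members higher (3) numbered 7 with array weights, 6 without both apart arrays, and 1 with the 3′ to 5′ ratio, with Xist, in the arrays without Xist signal or in the unmoderated model (2 to 7 with single arrays left out); members lower (6) numbered 4 to 7 throughout. Maternally expressed calls (8) numbered 5 with the 3′ to 5′ ratio, 4 with Xist or unmoderated, 3 without Xist arrays, and 5 to 8 with single arrays left out; paternally expressed calls (1) numbered 4 with array weights or without both apart arrays, 2 without Xist arrays, and 1 to 4. Over all probe sets, 1427 were higher, against 471 with the 3′ to 5′ ratio, 755 with Xist, 807 without Xist arrays, 883 unmoderated, 2631 with array weights and 876 to 2085 with single arrays left out; 1811 were lower, against 919 with the 3′ to 5′ ratio and 1296 to 2161. The replicate block gave 751 and 1164, no higher call among other imprinted genes (0), and ended the calls of Blcap (adjusted p = 0.0794) and Rian (0.0757), though numbers did not pair the samples. Other imprinted genes higher (1) were also 0 with the 3′ to 5′ ratio, Xist, no filter, no trend, unmoderated or without Xist arrays, 4 with array weights or without both apart arrays, and 0 to 2; those lower (3) were 1 with the 3′ to 5′ ratio, Xist, no trend or unmoderated, 6 with array weights, and 1 to 4. The median of paternally expressed members was 0.17 to 0.34 and of maternally expressed ones -0.02 to 0.09 with single arrays left out. Uncalled genes near 0 changed sign: Copg2 (-0.20) and Ube3a (0.08) with the 3′ to 5′ ratio, Impact (0.01 without Xist arrays, 0.02 with Xist, 0.00 without knockout replicate 3), Kcnq1ot1 (0.05, 0.01, and -0.32 to 0.08 with single arrays left out), Grb10 (-0.13 to 0.22), Gnas (0.00 to 0.13) and Nap1l4 (-0.05 to 0.07) with single arrays left out. The cause of these moves was not tested. The 3′ to 5′ ratio did not overlap between the genotypes, so fits with it cannot fully separate the ratio from genotype. The median over all probe sets tested lay at 0.05 or less under every scaling. With dim wild-types, the size for Phlda2 is the least certain.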

Other observations

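Imprinted genes outside the 50 were read in the same way. Of 30 further genes listed, 26 were on the array with a probe set of their own and 22 were tested; 1 was higher and 3 were lower in the knockout (18.2% called, against 15.1% of all genes). All 4 are named, and Casd1 was chosen for values in every array after its values were seen. Casd1, a sialic acid acetyltransferase next to Sgce in the Peg10 cluster, gave signals of 819, 929, 706 and 924 in the wild-types and 537, 496, 358 and 524 in the knockouts. The genotypes did not overlap, and the log2 fold change of Casd1 was -0.81 ± 0.14 (SE; adjusted p = 0.00253), which no alternative ended. Its tested neighbours Sgce, Ppp1r9a and Asb4 were not called.

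The other 3 calls were near the threshold and were each lost in 10 or more alternatives. Ddc, which makes dopamine and serotonin and lies beside Grb10, rose from 458 ± 53.7 to 639 ± 103 (SD, n = 4; adjusted p = 0.0419), with its lowest knockout (506) below its highest wild-type (537). Dhcr7, the last enzyme of cholesterol synthesis, fell from 590 ± 40.5 to 377 ± 113 (adjusted p = 0.0235). Qpct, a glutaminyl cyclase, fell from 136 ± 32.3 to 82.2 ± 15.7 (adjusted p = 0.0476).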
